A study of Mus musculus with 4 samples.

Results

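Relative to other mouse genes, most protein-coding genes in the distal stretch of chromosome 14 were transcribed at a higher level in ES cells labelled Supt3 KO than in wild-type cells. These neighbours are described here as a block. Their median log2 fold change was 0.59 on that relative scale and 0.37 on the scale of an added spike-in. In the spike-in fit with genotype as the single term, 0 of them were called higher. The members were chosen by position: protein-coding genes of chromosome 14 that start between 63519651 and 122159604 (mm10) and hold a raw count of 10 or more in at least 2 of the 4 libraries. There were 157 such genes, out of 207 protein-coding genes in the interval and 14233 protein-coding genes with the same counts in the whole table. The other 50 genes of the interval stayed below the minimum, and 15 of them had no count in any library. The interval runs from the start of Mtmr9 to the end of Tm9sf2 and had been placed by the KO over WT difference itself. Fold changes, calls and counts of calls within it are therefore a description of the block and no test of it.

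The data are TT-seq libraries of embryonic stem (ES) cells of the mouse, kept in serum with LIF: 2 with the genotype Supt3 WT and 2 with the genotype Supt3 KO. RNA had been labelled in the cells with 4-thiouridine (4-SU) and purified, so that counts report RNA made during the labelling, and labelled RNA of S. pombe was added to all libraries as a spike-in. The labels name neither the mutant allele, nor the strain, nor how many clones or cultures the libraries come from, so the spread between them may be technical. Supt3 codes for a subunit of SAGA, a coactivator of transcription by RNA polymerase II. Neighbouring genes on a chromosome need share no function: this stretch holds a tumour suppressor (Rb1), inhibitors of growth factor signalling (Spry2), Kruppel-like factors, parts of the RNA processing machinery, nuclear transport receptors and many neural genes. No DNA measurement of these cells was analysed here.

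Libraries held 13092151 to 19405100 mouse counts and 3462802 to 4836407 S. pombe counts. Levels below are CPM (edgeR's cpm values of the mouse counts, on library sizes adjusted by TMM, its trimmed-mean scaling), and log2 fold changes are KO over WT from edgeR's quasi-likelihood fit, with the standard error (SE). Supt3 itself stood at 148 and 159 CPM (WT) against 123 and 140 CPM (KO) (log2 fold change -0.22 ± 0.10, not called), so its count does not check the genotype. Of the ES cell markers, 7 of 8 held counts, while Sox2 was listed at 0 in every library. Their summed level was 1847 and 1894 CPM (WT) against 1207 and 1509 CPM (KO). Of the 7 tested, Nanog (-0.53) was the 1 called lower and 0 were called higher. Esrrb (-0.79), Zfp42 (-0.62) and Sall4 (-0.23) were not called, nor were Pou5f1 (0.12), Utf1 (-0.03) and Dppa5a (-0.03). Primitive endoderm markers summed to 275 and 336 CPM (WT) against 492 and 732 CPM (KO), with 6 of 8 called higher; Sox7, 1 of the 8, is a member of the block (1.09, not called). The trophoblast markers summed to 65.4 and 59.4 CPM (WT) against 67.9 and 81.7 CPM (KO), with 4 of 6 tested genes called higher. Feeder fibroblast markers summed to 5.54 to 6.97 CPM over the 4 libraries. Whether these markers bear on the block was not tested, and in bulk RNA fewer cells of a type and less RNA per cell cannot be told apart.

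On the TMM scale the median of the block was shifted by about the same amount in both KO libraries, while single members varied. Members took 1.46% and 1.502% of mouse counts in WT replicates 1 and 2, against 2.10% and 2.204% in KO replicates 1 and 2. Relative to the WT mean of each gene, on the log2 scale with 0.5 CPM added, the median member stood at -0.01 and 0.01 in the WT libraries and at 0.56 and 0.57 in the KO libraries. Other protein-coding genes had medians of 0.01 and 0.01 in the same KO libraries. In KO replicate 1, 141 of 157 members lay above their WT mean, and in KO replicate 2, 148 did. On this scale libraries of 1 genotype differed little in the block: the median member differed by 0.03 between the WT libraries and by 0.01 between the KO libraries. TMM brings the typical gene of all libraries to about the same level, so a small difference is no support for the block. Replicate 2 over 1, the other protein-coding genes had medians of -0.004 (WT) and -0.003 (KO). With spike-in scaling libraries of 1 genotype stood much further apart, as given in the section on processing below.

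**Figure D1:**
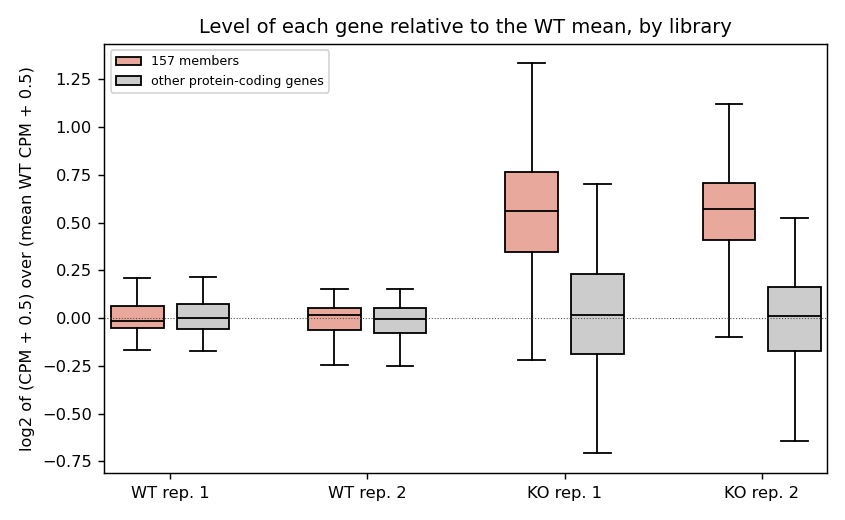
Level of each gene in each library relative to its WT mean, as log2 of CPM with 0.5 added, for the 157 members and for the other protein-coding genes. Boxes give the quartiles with the median, and whiskers the 5th and 95th percentiles; the WT boxes are centred near 0 by construction, and the member medians of 0.56 and 0.57 in the KO libraries stand above those of the other genes.

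The median log2 fold change of the members was 0.59, a ratio of 1.51, with quartiles of 0.41 and 0.72. It was 0.02 for the other 14076 protein-coding genes (quartiles -0.16 and 0.19), and 0.00 for the 346 protein-coding genes of chromosome 14 before the interval. The medians of the other autosomes and of X lay between -0.02 (chromosome 17) and 0.06 (X). A median over a chromosome can hide a shift of part of it. On chromosome 17, 73 of 666 genes were called lower and 21 higher, with a 10th percentile of -0.80. That range leaves out Y (8 genes, median -1.41, 5 called lower) and the mitochondrial genome (7 genes, -0.21). In edgeR's test (adjusted p under 0.05 over 16964 genes), 96 of 157 members were called higher, 0 lower (1 at an unadjusted p under 0.05) and 61 were not called, beside 4.03% of all tested genes called higher and 3.99% called lower. The interval was picked on this contrast, so nothing is read from the excess over the background. Both KO libraries lay above both WT libraries for 130 members, which was so for 26.5% of all tested genes, and below them for 5 (26.1% of all tested genes), and the groups overlapped for 22. Without WT replicate 2 the median stayed at 0.60, and without WT replicate 1 at 0.57, while fewer members were called higher. The share of all tested genes called in those fits was not taken. With the S. pombe spike-in as the scale the median was 0.37 and 0 members were called higher by edgeR (4 at an unadjusted p under 0.05), with the other protein-coding genes at -0.22. When the libraries with fewer and with more counts were each taken as a depth pair, a term added after seeing the data, edgeR with the spike-in scale called 98 members higher and 5 lower (median 0.35), beside 4.86% and 35.5% of all tested genes. With TMM and that term it called 125 higher and 1 lower, beside 13.1% and 12.4% of all tested genes. Of the genes named below, Dach1, Dis3, Elp3, Fndc3a, Gtf2f2, Ipo5, Ppp2r2a, Rbm26, Slc39a14, Stk24, Tm9sf2, Vwa8 and Xpo7 were not called higher when either WT library was left out. Bora, Kif13b, Pibf1, Sorbs3, Sucla2 and Zc3h13 were not called without WT replicate 1, nor Fgf14, Hmbox1, Ints9, Nalcn, Spry2 and Tsc22d1 without WT replicate 2. Abcc4, Akap11, Cdca2, Dgkh, Dock5, Enox1, Pcca, Pinx1, Tmtc4 and Ubac2, which were not called, were called higher without KO replicate 1.

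**Figure D2:**
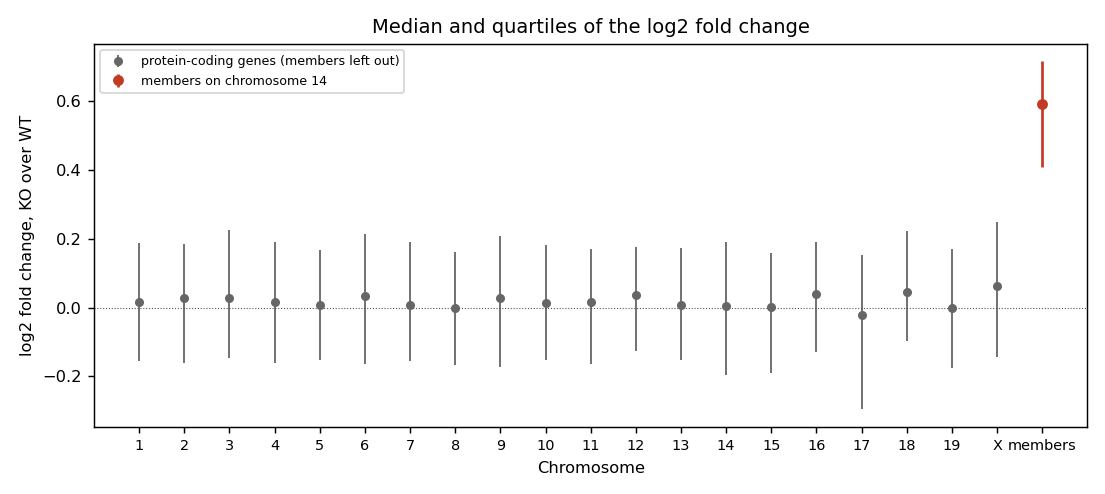
Median (point) and quartiles (bar) of the log2 fold change, KO over WT, for the protein-coding genes of each autosome and of X without the members, and for the 157 members. The member median of 0.59 lies above the chromosome medians of -0.02 to 0.06. A median over a chromosome can hide a shift of part of it.

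At the proximal end the values changed between neighbouring genes, a step that follows from the choice, since this edge was placed by the same contrast. Tdh, the threonine dehydrogenase gene that ES cells use to catabolise threonine, is the last tested protein-coding gene before the interval. It stood at 167 and 171 CPM (WT) against 164 and 193 CPM (KO), and the groups overlapped. Next to it, the first member Mtmr9, which codes for a myotubularin-related protein, stood at 51.1 and 53.4 CPM (WT) against 86.5 and 81.9 CPM (KO) (0.69 ± 0.09). Xkr6 (0.73) and Pinx1 (0.38), a telomerase inhibitor, follow. Just outside, Fam167a, not called with all libraries but called lower without KO replicate 2, had a log2 fold change of -0.72, from 6.23 and 7.69 CPM to 3.78 and 4.65 CPM. The endoderm factor gene Gata4, also outside, had 1.21 (24.1 and 31.7 CPM (WT) against 51.9 and 77.7 CPM (KO)) and is among the primitive endoderm markers that were higher. Inside the block, in successive stretches of 10 Mb from the first start the member medians were 0.58, 0.64, 0.56 (4 genes), 0.58, 0.65 and 0.59.

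**Figure D3:**
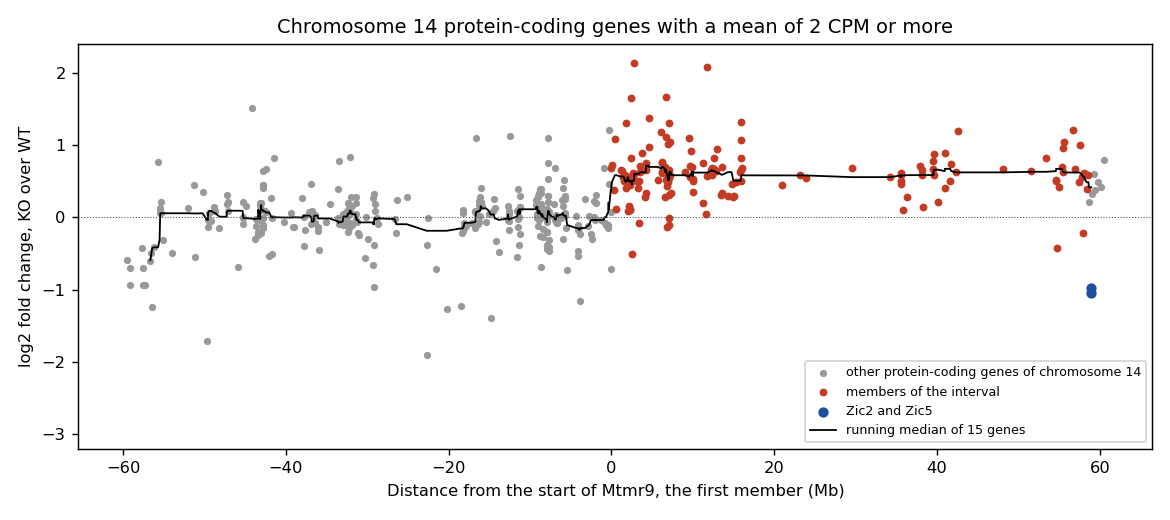
Log2 fold change, KO over WT, of each chromosome 14 protein-coding gene with a mean of 2 CPM or more against its distance from the start of Mtmr9 in Mb; the line is a running median of 15 genes. The members have a median of 0.59, and the 10 genes beyond them, with Zic2 and Zic5 at -0.97 and -1.04, a median of 0.35 before the level filter.

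At the distal end the higher values went on past the interval, and Zic2 and Zic5 lay outside it. The last 3 members were Ubac2 (0.39), Timm8a2 (0.23, at about 1 CPM) and Tm9sf2, a membrane traffic gene at 192 and 195 CPM (WT) against 266 and 318 CPM (KO) (0.59 ± 0.11). The 10 protein-coding genes beyond had a median of 0.35, or 0.40 over 8 genes without Zic2 and Zic5. Among them Ggact (0.61), Nalcn (0.49), a sodium leak channel gene, and Fgf14 (0.79) were called higher, and Clybl (0.21), Pcca (0.33), Tmtc4 (0.38) and Itgbl1 (0.42) were not called.

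Zic5 and Zic2 code for zinc finger transcription factors and sit beside each other on opposite strands, at 122456795 to 122465677 and 122475435 to 122479852. Zic5 stood at 44.8 and 45.4 CPM (WT) against 17.4 and 26.0 CPM (KO), a log2 fold change of -1.04 ± 0.17. Zic2 stood at 34.7 and 31.0 CPM (WT) against 15.1 and 18.1 CPM (KO) (-0.97 ± 0.13). For both genes the groups did not overlap and the edgeR test called them lower, and genes called higher lie on the distal side. With spike-in scaling their values were -1.22 and -1.16 and neither was called. With the depth pair as a further term they were -1.29 and -1.20. Both were then called lower, as were 35.5% of all tested genes in that fit. Gm5089, a predicted gene beside Zic5, had 2.05 and 1.41 CPM (WT) against 1.04 and 1.07 CPM (KO) and was not called.

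Most well-counted members lay near the block's own median. Of the 112 members with a mean of 10 CPM or more, 87 (77.7%) had a log2 fold change within 0.3 of their median of 0.59, 12 were further above and 13 further below. For 8985 other protein-coding genes at that level the share within 0.3 of their own median was 80.3%. The interquartile range was 0.23 for the members and 0.26 for the others. By level, the medians were 0.67 at 2 to 10 CPM (35 members), 0.63 at 10 to 50 CPM (40), 0.59 at 50 to 200 CPM (41) and 0.57 above 200 CPM (31). The 10 members under 2 CPM had a median of -0.00, and 0 of them were called. By length, members that span under 20 kb had a median of 0.66 (46 genes), those of 20 to 100 kb 0.56 (74) and longer ones 0.61 (37). Only Egr3, with 8 and 8 counts in WT and 17 and 20 in KO, passed the count minimum through 1 genotype, whereas 153 members reached it in all libraries. Close to the minimum, Klhl1 (6, 12, 12 and 5 counts) was inside and Ednrb (9, 9, 4 and 18 counts) outside.

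**Figure D4:**
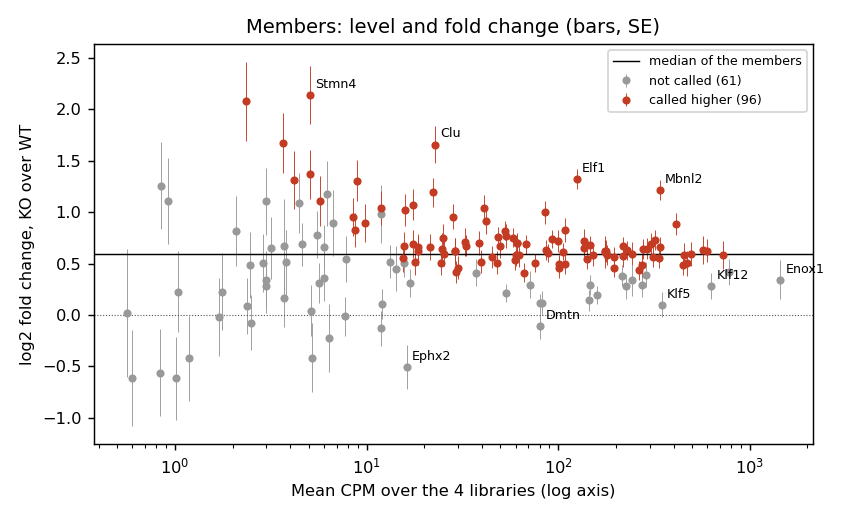
Log2 fold change, KO over WT, with its SE (bars), against the mean CPM of the 157 members; red points were called higher in edgeR's test and the line marks the member median of 0.59. Above 10 CPM most points lie near the line, with Clu, Elf1 and Mbnl2 above it and Klf5, Dmtn and Ephx2 below.

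Transcription factor genes ranged from Elf1, well above the block's median, to Sox21, below 0. Of 13 tested, 6 were called higher and 0 lower, with a median of 0.56. Counts here and in the lists below stand beside 61.1% of all members and 4.03% of all tested genes called higher. Elf1, an ETS family factor, had the largest value: 73.9 and 68.9 CPM (WT) against 188 and 170 CPM (KO), a log2 fold change of 1.32 ± 0.10 (2.503-fold), with the groups far apart. Hmbox1 (0.64), Tsc22d1 (0.65), Dach1 (0.56) and Pou4f1 (0.89) were called higher as well. Klf5, which supports self-renewal of ES cells together with Klf2 and Klf4, was among those away from the block's median. It stood at 356 and 313 CPM (WT) against 325 and 391 CPM (KO) (0.10 ± 0.12), and the groups overlapped. Its neighbour Klf12, a repressor of the same family, had 539 and 595 CPM (WT) against 628 and 749 CPM (KO) (0.28 ± 0.13), higher in both KO libraries but not called. Sox21, a SoxB2 factor, stood at 6.15 and 5.80 CPM (WT) against 2.60 and 6.11 CPM (KO) (-0.42 ± 0.33). It was low in KO replicate 1 alone, and without KO replicate 2 its value was -1.20. Among 14 Kruppel-like factor genes of the whole genome, Klf4 (-0.87), Klf2 (-0.66), Klf8 (-0.55) and Klf13 (-0.47) were called lower and Klf7 (0.41) higher, while Klf5 and Klf12 were the members from this block. Klf7 was not called with DESeq2 size factors or without WT replicate 1, WT replicate 2 or KO replicate 2, nor Klf8 and Klf13 without WT replicate 2.

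The start regions of Elf1 and Mbnl2, which were raised beyond the block, and of Sox21 and Zic5, which were not raised, are shown so that genes that part from the block can be compared. Each is the RefSeq promoter window of 300 bases on GRCm38.p6, the assembly also called mm10, from 250 bases before to 50 after the start, on the gene's own strand, with each CG dinucleotide in capitals. They lie at chr14:79480944-79481243 (plus strand), chr14:120275419-120275718 (plus), chr14:118236981-118237280 (minus) and chr14:122465609-122465908 (minus).
Elf1: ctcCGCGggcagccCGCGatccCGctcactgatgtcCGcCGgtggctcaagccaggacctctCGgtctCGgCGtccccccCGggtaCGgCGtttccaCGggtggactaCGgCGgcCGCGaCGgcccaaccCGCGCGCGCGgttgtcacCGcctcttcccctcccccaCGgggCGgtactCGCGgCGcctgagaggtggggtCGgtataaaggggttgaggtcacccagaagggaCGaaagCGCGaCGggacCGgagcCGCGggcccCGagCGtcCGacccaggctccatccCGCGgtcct
Mbnl2: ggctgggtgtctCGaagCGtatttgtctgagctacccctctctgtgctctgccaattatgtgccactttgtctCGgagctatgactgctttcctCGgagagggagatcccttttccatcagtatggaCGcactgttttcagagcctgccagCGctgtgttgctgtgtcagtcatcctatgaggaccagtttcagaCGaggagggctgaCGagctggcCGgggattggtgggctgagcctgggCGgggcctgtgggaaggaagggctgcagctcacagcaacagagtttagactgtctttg
Sox21: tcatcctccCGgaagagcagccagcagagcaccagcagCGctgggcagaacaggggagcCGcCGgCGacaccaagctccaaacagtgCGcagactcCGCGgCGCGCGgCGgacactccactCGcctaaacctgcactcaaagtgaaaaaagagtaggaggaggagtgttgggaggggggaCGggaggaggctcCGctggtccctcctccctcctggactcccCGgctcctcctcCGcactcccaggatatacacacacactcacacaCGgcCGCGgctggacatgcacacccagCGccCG
Zic5: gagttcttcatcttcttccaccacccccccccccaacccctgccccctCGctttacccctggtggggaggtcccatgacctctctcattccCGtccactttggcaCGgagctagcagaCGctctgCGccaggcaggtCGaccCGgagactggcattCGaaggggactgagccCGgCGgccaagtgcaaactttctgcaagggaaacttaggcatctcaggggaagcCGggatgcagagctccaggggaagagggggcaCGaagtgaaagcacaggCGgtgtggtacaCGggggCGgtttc
These windows hold 43, 10, 22 and 15 CG dinucleotides, a motif that reads the same on both strands and that 99.4% of the windows of other protein-coding genes hold at least once. The raised Elf1 and Mbnl2 have the most and the fewest of the 4. A window was matched by symbol for 73 of the 157 members, so CG content over the whole block could not be checked. Of the 73, 55 had an observed to expected CG ratio of 0.6 or more and a median log2 fold change of 0.59. The other 18 had a median of 0.68, and the difference was not tested.

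Genes for RNA synthesis and processing mostly lay near the block's median: 11 of 12 were called higher, 0 lower, with a median of 0.55. Mbnl2, a regulator of alternative splicing, went beyond it, from 206 and 202 CPM (WT) to 464 and 484 CPM (KO) (1.22 ± 0.10, 2.32-fold). Rbm26 (0.50), Elp3 (0.56), an Elongator subunit, Nufip1 (0.67) and Polr3d (0.59), a subunit of RNA polymerase III, stood near the block's median. Zc3h13, a part of the m6A methyltransferase complex, had 164 and 187 CPM (WT) against 250 and 273 CPM (KO) (0.57 ± 0.11). It was the only called gene of the 7 of that complex that were tested, whose median was 0.12, with Mettl3, the catalytic subunit, at 0.15 and not called. Dis3, a catalytic subunit of the RNA exosome, had 169 and 161 CPM (WT) against 225 and 227 CPM (KO) (0.46 ± 0.09). The 14 exosome genes tested had a median of 0.09, and Dis3 was the 1 called. Med4, a Mediator subunit, had 48.1 and 49.2 CPM (WT) against 68.0 and 72.6 CPM (KO) (0.53 ± 0.09). The exception was Piwil2, a germline piRNA factor, at 11.7 and 13.2 CPM (WT) against 9.87 and 12.7 CPM (KO) (-0.13 ± 0.17). Gtf2f2 (0.59), the small subunit of TFIIF, and Ints9 (0.57), an Integrator subunit, were in no list and were named after their values were seen; both were called higher.

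Of 13 cell division genes tested, 12 had a positive value, with a median of 0.51. Of these 13, 7 were called higher (53.8%, beside 61.1% of all members), 0 lower and 6 not called. Rb1, the retinoblastoma tumour suppressor that restrains E2F factors, had 106 and 101 CPM (WT) against 191 and 148 CPM (KO) (0.71 ± 0.13). The antisense strand of Rb1 carries Lpar6, a lysophosphatidic acid receptor gene (0.92), and with the strand setting of the count not given, reads of the 2 genes cannot be told apart with certainty. Sugt1 (0.69), Mzt1 (0.58), a part of the microtubule nucleating complex, Bora (0.51), an activator of Aurora A and Plk1, and Pibf1 (0.61) were called higher. Esco2, the cohesin acetyltransferase of S phase, stood at 80.1 and 73.5 CPM (WT) against 82.1 and 84.1 CPM (KO) (0.11 ± 0.09). Cdca2, a mitotic chromatin regulator, had 192 and 215 CPM (WT) against 222 and 271 CPM (KO) (0.28 ± 0.12), and the mitotic kinase gene Pbk had 11.1 and 12.1 CPM (WT) against 12.9 and 12.2 CPM (KO) (0.11 ± 0.15). Neither was called. Of 25 genes of the RB and E2F pathway in the whole genome, Rb1, Cdk6 (0.38) and Ccnd2 (0.74) were called higher and Ccnd3 (-0.44) and Cdkn1b (-0.56) lower, with a median of -0.06. Cdk6, Ccnd3 and Cdkn1b were not called when either WT library was left out, nor Ccnd2 without WT replicate 2 or KO replicate 1, nor Ccnd3 without KO replicate 1; DESeq2 did not call Ccnd3 or Cdkn1b.

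Receptor and signalling genes were mostly raised: 20 of 26 were called higher and 0 lower, with a median of 0.62. Spry2, an inhibitor of receptor tyrosine kinase signalling, had 150 and 128 CPM (WT) against 218 and 211 CPM (KO) (0.62 ± 0.10). Of 6 Sprouty and Spred genes tested it was the 1 called, with Spry4 at 0.30 and Spred2 at -0.20. Tnfrsf10b, the death receptor that is a target of p53, had 39.0 and 40.2 CPM (WT) against 74.4 and 60.4 CPM (KO) (0.77 ± 0.12). Ppp2r2a (0.62), a regulatory subunit of protein phosphatase 2A, Kif13b (0.66) and the kinase gene Stk24 (0.57) were close to the block. Farp1 (1.00), Bmp1 (1.02), the procollagen C-proteinase, Dok2 (1.04) and Sorbs3 (1.11) were higher than that. Dgkh (0.30), Dock5 (0.34) and Akap11 (0.29) were higher in both KO libraries or overlapped with WT and were not called.

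Of 23 genes for protein turnover and membrane traffic, 22 were called higher and 0 lower, with a median of 0.66. Mycbp2, a large ubiquitin ligase, had 283 and 295 CPM (WT) against 516 and 551 CPM (KO) (0.88 ± 0.10). The nuclear transport receptor genes Xpo7 and Ipo5 stood at 0.58 and 0.49. Ubac2 (0.39) was the gene not called. The F-box gene Fbxo16 went from 4.40 and 5.75 CPM to 13.8 and 11.7 CPM (1.31 ± 0.20). Of 16 mitochondrial and metabolic genes, 15 had a positive value, with a median of 0.50. Of these 16, 10 were called higher (62.5%, beside 61.1% of all members) and 0 lower. Sucla2 (0.50), a subunit of succinyl-CoA ligase, Vwa8 (0.49) and the zinc transporter gene Slc39a14 (0.43) were called. Abcc4, an exporter of organic anions, had 629 and 701 CPM (WT) against 814 and 964 CPM (KO) (0.42 ± 0.13) and was not called. Msra, which repairs oxidised methionine, stood at 0.11 ± 0.12. Nudt18 had 2.27 and 2.46 CPM (WT) against 7.27 and 4.65 CPM (KO) (1.31 ± 0.28).

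Ephx2, the soluble epoxide hydrolase gene, was the member with at least 2 CPM that went furthest against the block. It had 23.4 and 14.7 CPM (WT) against 14.02 and 12.6 CPM (KO), a log2 fold change of -0.51 ± 0.21. Both KO libraries lay below both WT libraries, yet the WT libraries differed more from each other than WT replicate 2 did from KO, and it was not called. With the depth pair as a term it was called lower, at -0.48 with TMM and -0.72 with spike-in scaling. In those fits 12.4% and 35.5% of all tested genes were called lower. Without WT replicate 2 it stood at -0.82 and was called, as it was without KO replicate 1 (-0.59). Of the 157 members, 12 had a negative value, of which Sox21, Slc15a1 (-0.22), Dmtn (-0.11), a cytoskeletal gene at 77.4 and 89.7 CPM (WT) against 68.2 and 86.7 CPM (KO), Piwil2, Hr (-0.01), Npm2 (-0.02) and Pebp4 (-0.42) overlapped between genotypes. Slc15a1 was called lower without KO replicate 2 (-0.83), as was Sox21.

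**Figure D5:**
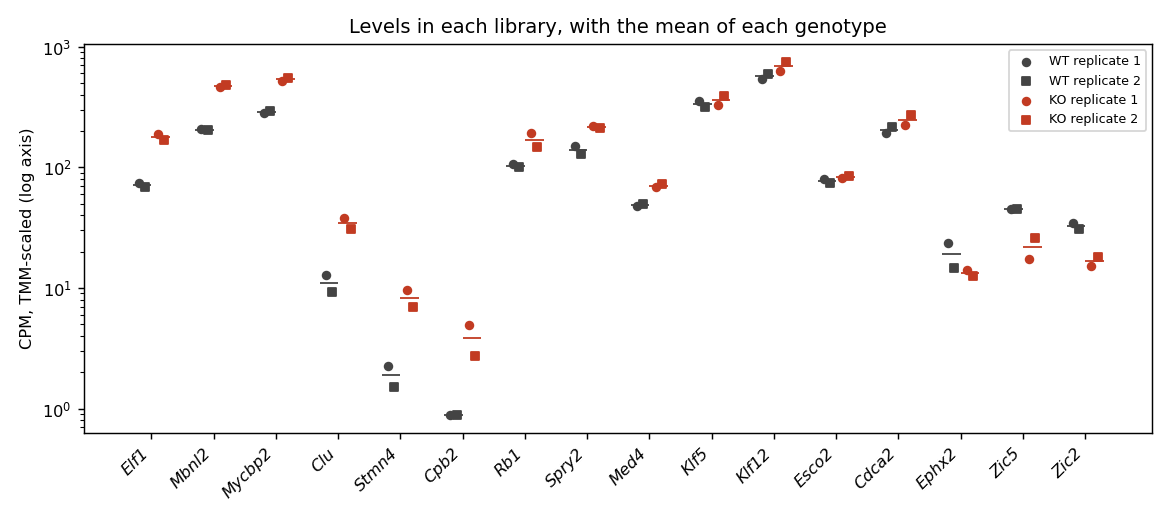
CPM (log axis) of 14 members and of Zic5 and Zic2 in each library, with a line at the mean of each genotype (n = 2). KO points lie above WT points from Elf1 to Med4, overlap with them for Klf5, and lie below them for Ephx2, Zic5 and Zic2.

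Neural and secreted genes of the block included Stmn4, Cpb2, Clu and Nefm, each called higher. Of 17 neural and cell surface genes tested 6 were called higher and 0 lower, with a median of 0.67. Stmn4, a neuronal stathmin, had 2.27 and 1.52 CPM (WT) against 9.57 and 6.90 CPM (KO) (2.14 ± 0.28, 4.40-fold), the largest value of the block. The neurofilament gene Nefm had 3.08 and 2.56 CPM (WT) against 8.16 and 6.39 CPM (KO) (1.37 ± 0.24), and the glypican gene Gpc6 stood at 0.82. Enox1, the most counted member, had 1141 and 1405 CPM (WT) against 1328 and 1900 CPM (KO) (0.34 ± 0.19), with overlapping groups, and Slain1 stood at 0.21 ± 0.09. Of 8 secreted and matrix genes 3 were called higher and 0 lower, with a median of 0.73. Clu, an extracellular chaperone, had 12.7 and 9.31 CPM (WT) against 38.3 and 30.6 CPM (KO) (1.66 ± 0.18). Cpb2, a carboxypeptidase of fibrinolysis, had 0.88 and 0.89 CPM (WT) against 4.90 and 2.75 CPM (KO) (2.08 ± 0.38), and KO replicate 1 carried more of the difference. Without KO replicate 1 its value was 1.62. Fndc3a (0.63) was close to the block, and Loxl2 (1.18, called when either KO library or WT replicate 1 was left out) and Scara5 (0.16) were not called. The actin-linked gene Pdlim2, in no list, had 2.12 and 1.41 CPM (WT) against 6.31 and 4.82 CPM (KO) (1.67 ± 0.29). The 29 members that no list holds ranged from -0.62 to 1.67, with 11 called higher, 0 lower and a median of 0.49. Among them were Lrch1 (0.20) and Gm5464 (-0.08), which were not called.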

How the data were processed

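Deposited values were raw counts per mouse gene and per S. pombe gene, and a deposited comparison table with the same raw counts (100% of values equal). The authors' table also gives normalized signal values (counts divided by 1 size factor per library), shrunken log2 fold changes and p-values, per the file headers. These size factors were 1.03 and 0.86 in WT replicates 1 and 2, and 1.21 and 0.94 in KO replicates 1 and 2. They followed the S. pombe counts (4155518, 3462802, 4836407 and 3786899, in that order) and ranked in reverse of the mouse counts. The authors' values are therefore on a spike-in scale, like the spike-in fit here and unlike the TMM fit. Of the 157 members, 0 had, in the authors' deposited table, an adjusted p under 0.05 (8 of all 29514 genes did), and their median log2 fold change was 0.26, beside -0.15 for the other protein-coding genes. Among the tools in the submitters' processing notes are STAR 2.5.3, DESeq2 1.16.1 and HTSeq 0.6.1p1, beside the mm10 build. The kit marks strand, per the labels' protocols. No source used here states the strand setting or the annotation release, so the 26 members that overlap a tested gene of the opposite strand, and the 3 that overlap one of the same strand, are uncertain.

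Counts of all genes with 10 or more in at least 2 libraries (16964) were fitted with edgeR 4.0.16 (R 4.3.3), quasi-likelihood test, TMM factors, genotype as the single term and Benjamini-Hochberg adjustment over all of them. The SE is the log2 fold change over the square root of F. The fit was tested on simulated counts of 16964 genes, where it recovered 40.3%, 71.6% and 97.0% of genes given log2 changes of 0.5, 1 and 2 and called 0.0418% of unchanged genes. Only 67, 67 and 66 genes were given these changes. The spread followed edgeR's trend with level, with none of a gene's own and no shift between replicates. The rates are therefore not the power or error of the real data. Alternatives were spike-in scaling, DESeq2 1.42.0, limma voom 3.58.1, other filters and factors, each library left out, and a depth-pair term. Replicates were numbered in accession order. Replicate libraries differed by a chi-square of 5.99 (WT) and 10.2 (KO) per degree of freedom, so none is a duplicate. With 2 libraries against 2 an exact permutation test of a single value could not go below p = 0.333. Members, gene lists and tests were chosen with earlier results of these data known. Named genes were the 3 at each edge of the interval and the nearest 3 outside, Zic2 and Zic5, the 8 largest and 8 smallest changes without overlap at 2 CPM or more, the 4 most counted and any called lower of each list, called genes of whole-genome lists, and Cpb2, Stmn4, Spry2, Tnfrsf10b and Med4; others were named after their values were seen.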

Additional observations from a re-analysis of the deposited data

How the results depend on the processing

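No paired analysis was possible from the labels because they give the libraries no replicate numbers and tie no WT library to a KO library. The median log2 fold change of the members (0.59) ranged from 0.57 to 0.60 when 1 library was left out, was 0.57 between the libraries with fewer counts (WT replicate 1 and KO replicate 1, by their totals), and was 0.37 with spike-in scaling, where the other protein-coding genes moved to -0.22. Called higher members (96) were fewer when either WT library was left out and more when either KO library was. They were 95 to 97 with DESeq2, limma voom, filterByExpr, DESeq2 size factors and TMM without chromosome 14, and 112 with no low-count filter. With spike-in scaling they were 0, as were all 16964 tested genes called higher. For the other alternatives the share of all tested genes called was not taken. A change in these counts is therefore not read as a change in the block. With neither spike-in scaling nor the depth term below, 54 members were called higher in each of 11 settings, 37 in none, and 137 were positive in each. Called lower members (0) ranged from 0 to 2 without 1 library and were 1 with no low-count filter (Ephx2). With spike-in scaling the level of the block was -0.42 and 0.33 in WT replicates 1 and 2. In KO replicates 1 and 2 it was -0.0746 and 0.68. With TMM these levels were -0.01, 0.01, 0.56 and 0.57, in the same order. On the spike-in scale WT replicate 2 stood above KO replicate 1, so the genotypes overlapped. Within the libraries with fewer counts and within those with more, a pairing that no label gives, the KO library stood above the WT library. With a pseudocount of 2 CPM the KO libraries stood at 0.52 and 0.53. With spike-in scaling the sign turned for 9 named genes near 0: Mettl3 (-0.12), Tdh (-0.13), Scara5 (-0.15), Pbk (-0.15), Esco2 (-0.10), Lrch1 (-0.0419), Klf5 (-0.0791), Slain1 (-0.0293) and Clybl (-0.0215). Leaving out a KO library gave -0.0466 to 0.19 for Tdh, -0.0409 to 0.22 for Klf5 and -0.13 to 0.46 for Timm8a2, negative without KO replicate 2, and the sign turned without WT replicate 1 for Scara5 (-0.12). The depth pair (fewer or more counts, by the totals and not by the labels) was added as a term after seeing the data, which leaves 1 residual degree of freedom. With TMM it gave 125 members higher, 1 lower and a median of 0.58, and with spike-in scaling 98 higher, 5 lower and a median of 0.35, so the 0 calls with spike-in scaling held only without that term. In the latter fit the same 9 genes were negative, as was Timm8a2. TMM with the depth term also called some named genes that the main fit did not call. Ephx2 and Fam167a were called lower, beside 12.4% of all tested genes. Among those called higher, beside 13.1%, were Abcc4, Cdca2, Clybl, Dgkh, Enox1, Klf12, Loxl2, Lrch1, Pcca, Pinx1, Slain1, Tmtc4 and Ubac2. The cause was not tested. Below about 10 CPM the SE of single members limits what can be read from them.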

Other observations

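The interval also holds genes that code for no protein, lincRNA genes above all. Of 32 tested, 25 had a positive log2 fold change, and the median was 0.30. For the 18 lincRNA genes the median was 0.39. Of the 32, 1 was called higher and 1 lower, beside 4.03% and 3.99% of all tested genes, so nothing is read from these calls. Mir17hg, the host gene of the miR-17-92 microRNA cluster, was the most counted, with 231 and 244 CPM in WT and 329 and 312 CPM in KO (0.43 ± 0.10, called higher). Mir124a-1hg, a host gene of the neural miR-124, had 11.9 and 13.5 CPM in WT and 10.7 and 13.6 CPM in KO (-0.07 ± 0.17). 4930449E01Rik, under 2 CPM in each library, was the gene called lower (-1.73 ± 0.44). A difference from the coding genes was not tested.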
